A study of Mus musculus with 10 samples.

Results

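DNA-seq from male mouse embryonic stem cells (mESCs) was used to ask whether the autosomes differ between 2 culture protocols when cultures are compared after equal days in culture. The comparison set the 2 libraries of the Keniry2022 conditions at passage 20 (p20) against the 2 libraries of the Mulas2019 conditions at passage 10 (p10), which are 4 of the 10 libraries in the series. These groups match in days because Keniry2022 cultures are passaged daily and Mulas2019 cultures every other day. The groups were chosen by their labels and not by any measured value. All cultures were C57/Bl6 male mESC lines in 2i/LIF medium. The study reports that a single line lost chromosome Y during derivation, before the protocols were applied. Both lines were derived independently in Keniry2022 conditions and each was then divided between the protocols at p0, so neither group grew in Mulas2019 conditions from the start. Keniry2022 cells grew in suspension at higher density and in more medium, whereas Mulas2019 cells grew on gelatin. A group of 2 lines gives a weak estimate of the spread, and days, passage number and cell divisions were not matched at the same time.

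Naive mESCs are kept in an early embryonic state by LIF, a cytokine that acts through Jak kinases and Stat3, and by inhibitors of Mek and Gsk3. Long culture can select cells that have gained or lost chromosomes, and whole-genome sequencing at low depth is used to look for such changes because the number of reads in a region follows its copy number. The mammalian genome is also uneven in its base composition. Stretches rich in G and C carry most genes, while AT-rich stretches are gene-poor and hold large neuronal genes and tandem arrays of sensory receptor genes.

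The 4 libraries held 27270648 and 35354358 reads for Mulas2019 p10 replicates 1 and 2, and 32707364 and 33003961 reads for Keniry2022 p20 replicates 1 and 2. Reads were summed in bins of 1 Mb and expressed as CPM, the share of a library's nuclear reads scaled to parts per 1000000. A total of 2391 of 2473 autosomal bins passed the filter on low values. A median bin held 11468 to 14724 reads, and its counting error was 0.824% to 0.934%. PCR duplicates carried no molecular identifier, so that this error covers counting only. The replicate numbers of the Keniry2022 p20 libraries were in doubt because their chromosome Y reads ran opposite to those of all other groups, so that values are given for each library by its label and no value is given per line.

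Base composition is shown first, because it is the feature along which the bins differed. The following stretches of 120 bases come, among bins that passed the test below, from the pair with the largest gain and the pair with the largest loss in Keniry2022 p20. Each is the first repeat-free stretch outside exons whose GC content is nearest to that of its bin, read from the plus strand of GRCm38. Capitals mark every G and C.
chr10:80001801-80001920, in Abca7, higher bin: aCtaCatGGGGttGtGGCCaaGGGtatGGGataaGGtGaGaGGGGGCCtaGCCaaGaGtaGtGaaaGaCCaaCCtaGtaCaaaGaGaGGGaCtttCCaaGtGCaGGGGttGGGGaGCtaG
chr4:140000841-140000960, intergenic, higher bin: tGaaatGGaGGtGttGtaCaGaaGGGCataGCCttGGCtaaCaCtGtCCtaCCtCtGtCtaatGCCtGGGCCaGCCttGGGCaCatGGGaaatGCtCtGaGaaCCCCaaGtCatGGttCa
chr4:113002281-113002400, in Skint6, lower bin: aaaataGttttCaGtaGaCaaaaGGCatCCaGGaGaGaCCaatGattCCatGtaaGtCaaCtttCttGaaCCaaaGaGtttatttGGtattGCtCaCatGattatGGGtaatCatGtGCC
chr1:110008761-110008880, in Cdh7, lower bin: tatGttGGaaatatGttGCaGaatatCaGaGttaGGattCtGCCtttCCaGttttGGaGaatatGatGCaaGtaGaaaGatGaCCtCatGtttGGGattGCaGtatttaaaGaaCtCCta
The stretches from the higher bins hold 64 and 62 G or C bases, and those from the lower bins 44 and 43. These counts follow from the choice of each stretch, and the bins are the most extreme that passed. Over all bins that passed, the median GC content was 46.8% in the higher and 37.8% in the lower bins.

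Between Keniry2022 p20 and Mulas2019 p10, 1122 of 2391 autosomal bins (46.9%) differed in representation by limma's TREAT test against a minimum fold change of 1.1, at an adjusted p of 0.05. In Keniry2022 p20, 474 bins (19.8%) were higher and 648 bins (27.1%) were lower. The log2 fold change (log2FC, Keniry2022 p20 over Mulas2019 p10) had a median of 0.25 over the higher bins, a fold of 1.19, and a median of -0.35 over the lower bins, a fold of 0.784. All 1122 bins had 4 library values that did not overlap between groups. Such separation was common and is no measure of size. In 1142 bins both Keniry2022 p20 libraries lay above both Mulas2019 p10 libraries and in 1099 below, together 93.7% of bins. The log2FC of bins that passed ran from -0.57 to 0.41, short of a change in copy number in every cell. Changes in a part of the cells were not tested. No autosomal bin reached the log2FC of 0.58 that a gain from 2 to 3 copies would give, or the -1 of a loss to 1 copy. The median standard error of a bin was 0.021. The count depends on the minimum change, since 0 bins passed by limma when the minimum was a log2FC of 1.1 and 0 had an unadjusted p under 0.05.

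The higher bins were gene-rich and the lower bins gene-poor. The 474 higher bins held the starts of 8146 protein-coding genes (39.7% of 20535), with a median of 14.5 per bin. The 648 lower bins held 2082 (10.1%), with a median of 1, and 224 of them held none. Among all tested autosomal bins the median was 5 genes. Median GC content was 46.8% in the higher bins, 37.8% in the lower bins and 42.1% in those that did not pass. Higher bins did not extend below a GC content of 43.6% or lower bins above 41.3%.

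The relation to GC content was graded. Among the 366 bins with a GC content of 35 to 38%, 356 were lower and 0 higher, with a median log2FC of -0.42. The median CPM of these bins was 330 and 345 in Mulas2019 p10 replicates 1 and 2, and 251 and 254 in Keniry2022 p20 replicates 1 and 2. The AT-rich bins were thus represented less in both Keniry2022 p20 libraries. Of the 433 bins between 38 and 40%, 286 were lower and 0 higher. Between 40 and 42%, 6 of 466 bins were lower, and between 42 and 44%, 1 of 458 was higher. Of the 327 bins between 44 and 46%, 138 were higher, followed by 199 of 205 between 46 and 48% and 136 of 136 above 48%. In this last band the median CPM was 454 and 456 in the Mulas2019 p10 libraries and 570 and 567 in the Keniry2022 p20 libraries. The Mulas2019 p10 libraries were nearly flat above 44% GC, whereas the Keniry2022 p20 libraries went on rising.

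**Figure D1:**
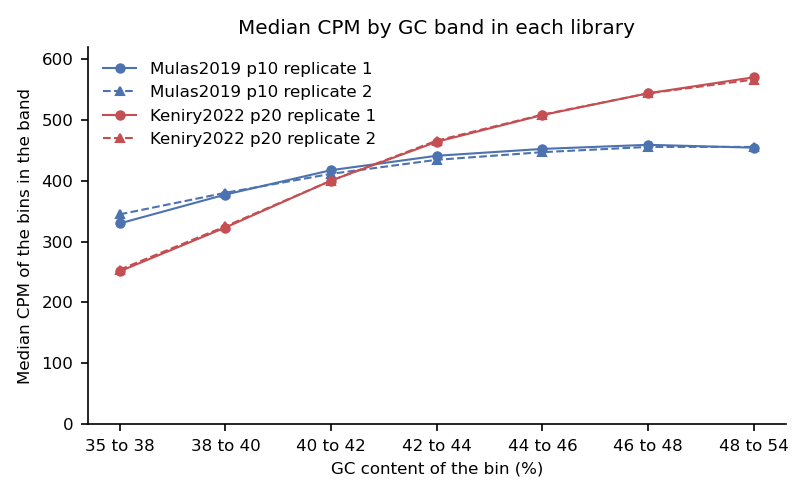
Median CPM of the autosomal 1 Mb bins (y axis) in 7 bands of GC content (x axis, %), with a line for each library, blue for Mulas2019 p10 and red for Keniry2022 p20. The libraries of a group nearly coincide, and the groups cross in the band of 40 to 42%.

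Each library could be summarised by the slope of log2 CPM on GC content. The slope was 0.040 and 0.034 per 1% GC in Mulas2019 p10 replicates 1 and 2, and 0.101 and 0.0997 in Keniry2022 p20 replicates 1 and 2. The groups did not overlap, but with 2 libraries against 2 the smallest p of a two-sided exact permutation test is 0.333, and the slopes are given as a description. The spread of log2 CPM over autosomal bins was also larger in Keniry2022 p20, with an SD of 0.446 and 0.437 against 0.280 and 0.267. The log2 ratio of 2 libraries of the same group had an SD over bins of 0.040 in Mulas2019 p10 and 0.034 in Keniry2022 p20, and that of libraries from different groups an SD of 0.22 to 0.25.

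After the smooth relation with GC content was removed from each library by a loess curve, 1 of 2391 autosomal bins (0.0418%) passed the same limma test and 9 had an unadjusted p under 0.05. The SD over bins of the log2FC fell from 0.234 to 0.039. Between libraries of different groups the SD of the log2 ratio was then 0.036 to 0.055, against 0.027 and 0.033 within the groups. The median log2FC over autosomal bins was 0.01 as measured and -0.03 after the correction. The correction also removes any true difference that follows GC content, so that copy number and efficiency of sequencing along GC content cannot be told apart. Between 40 and 42% GC, the 115 bins with at most 2 gene starts had a median log2FC of -0.05 at a median GC content of 40.8%, and the 96 bins with at least 10 had -0.05 at 41.2%. Across all 2391 bins, which share libraries and are not independent, the corrected log2FC had a Pearson correlation of -0.205 with gene number.

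**Figure D2:**
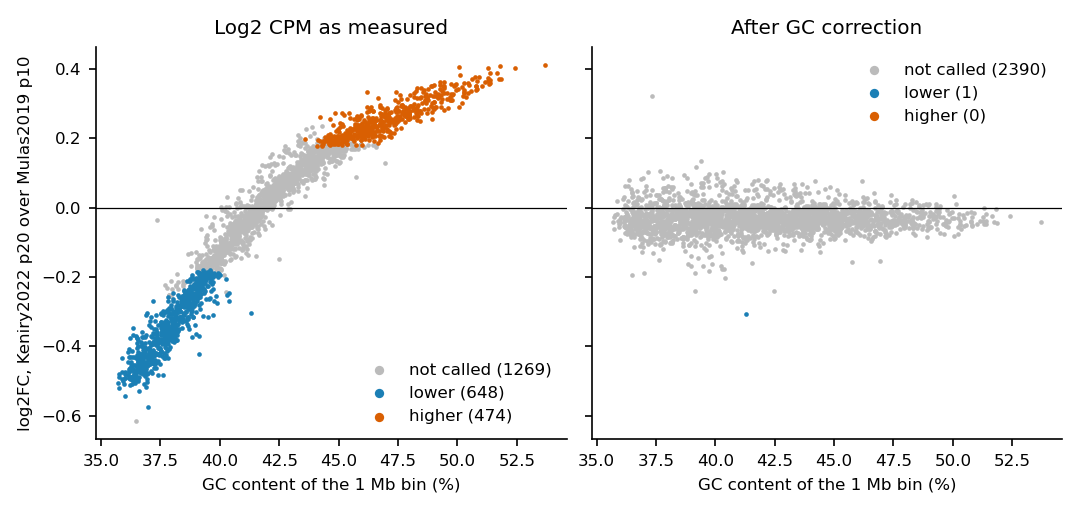
The log2FC of each autosomal 1 Mb bin (y axis, Keniry2022 p20 over Mulas2019 p10) against its GC content (x axis, %), as measured (left) and after the GC correction (right), coloured by the limma call. As measured the bins follow a curve from about -0.5 to 0.4, and after the correction 1 bin on chromosome 7 passed.

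The bin with the largest gain lay on chromosome 10 from 80000001 to 81000000 (GRCm38), with a GC content of 53.7%. It holds the starts of 53 protein-coding genes, among them Stk11 (a kinase that activates AMPK), Gpx4 (which reduces lipid peroxides), Dot1l (a histone H3 methyltransferase) and Amh (anti-Mullerian hormone). CPM was 449 and 459 in Mulas2019 p10 replicates 1 and 2, and 610 and 598 in Keniry2022 p20 replicates 1 and 2. The groups were far apart, with a log2FC of 0.41 (SE 0.045, limma adjusted p 2.63e-04). All 100 of its 10 kb windows were higher in Keniry2022 p20, so that the difference was spread over the bin. Its log2FC was -0.04 after the GC correction.

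The next gains were similar in size and base composition. The bin on chromosome 4 from 140000001 to 141000000 holds 5 genes of the Padi family, which convert arginine to citrulline in proteins, and Sdhb, a subunit of succinate dehydrogenase. Its CPM was 434 and 438 in Mulas2019 p10 and 583 and 575 in Keniry2022 p20, with a log2FC of 0.41 (SE 0.032, limma adjusted p 3.50e-05). On chromosome 8 the adjacent bins from 120000001 to 122000000 both had a log2FC of 0.40. The second of them holds Foxf1, Foxc2 and Foxl1, a cluster of forkhead transcription factors, and had a CPM of 424 and 425 in Mulas2019 p10 and 566 and 557 in Keniry2022 p20. The other 4 bins chosen for the largest gains were the end of chromosome 7 from 145000001 (with Tpcn2, an ion channel of endolysosomes), chromosome 11 from 118000001 (Timp2, an inhibitor of metalloproteinases), chromosome 4 from 154000001 (Trp73, a p53 family member, and Hes5, a Notch target) and chromosome 15 from 84000001 (Pnpla3, a lipase). Their log2FC was 0.38 to 0.41. The GC correction brought the 8 bins to a log2FC of -0.04 to 0.03.

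The largest loss among bins that passed lay on chromosome 4 from 113000001 to 114000000, with a GC content of 37.0% and the starts of Skint5 and Skint6. Skint genes encode immunoglobulin-like membrane proteins of skin and thymus. CPM was 308 and 322 in Mulas2019 p10 replicates 1 and 2, and 210 and 213 in Keniry2022 p20 replicates 1 and 2. The log2FC was -0.57 (SE 0.031, limma adjusted p 9.96e-06) and 97 of 100 windows were lower. The 99 autosomal bins whose GC content was within 0.25 points of that of its reads had a median log2FC of -0.43, so this bin lay below bins of like composition. After the GC correction it had a log2FC of -0.19, which did not pass.

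The other large losses held few genes. The bin on chromosome 1 from 110000001 holds the start of Cdh19, a cadherin, and had a CPM of 321 and 342 in Mulas2019 p10 against 222 and 234 in Keniry2022 p20 (log2FC -0.54, SE 0.031). The bin on chromosome 7 from 85000001 holds 9 pheromone receptor genes of the Vmn2r family, and its CPM was 305 and 325 against 220 and 220 (log2FC -0.52, SE 0.032). Single genes of nerve and matrix biology, Pcdh9 (a protocadherin), Brinp3 and Mmp16 (a membrane metalloproteinase), started in the bins on chromosome 14 from 93000001, chromosome 1 from 146000001 and chromosome 4 from 17000001. No protein-coding gene started in the bins on chromosome 5 from 60000001 and chromosome 14 from 83000001. Over the 8 bins the log2FC was -0.57 to -0.51 as measured and -0.19 to -0.06 after the GC correction.

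**Figure D3:**
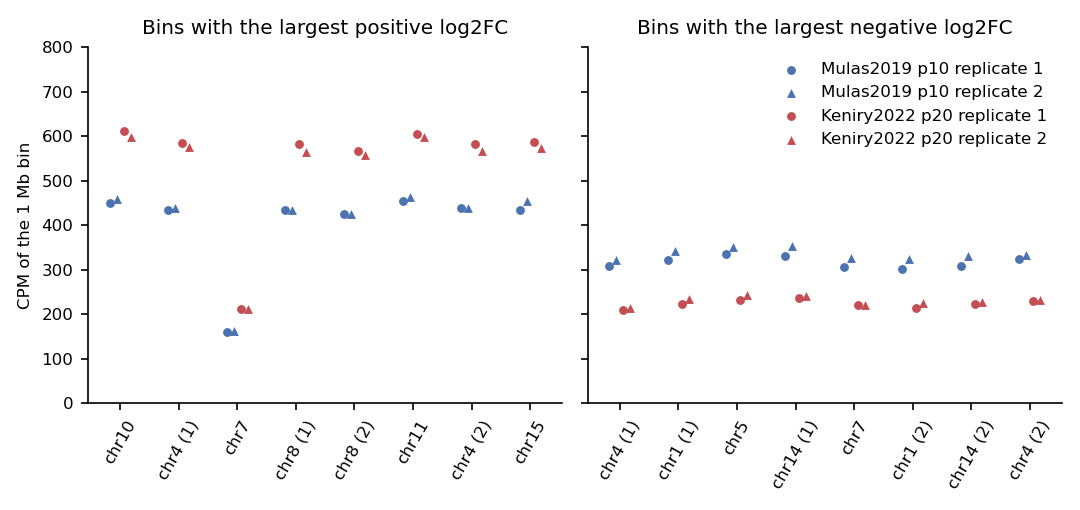
CPM of the 8 autosomal bins with the largest gains (left) and the 8 with the largest losses (right) that passed the test, at most 2 per chromosome, with a point for each of the 4 libraries. In every bin both Keniry2022 p20 libraries (red) lie on the same side of both Mulas2019 p10 libraries (blue).

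The named bins were also set beside the passage-matched groups, which share libraries with this comparison. For the chromosome 10 bin with Stk11 the log2FC was 0.27 for Keniry2022 over Mulas2019 at p10 and 0.20 at p20. For the chromosome 4 bin with Skint5 and Skint6 these values were -0.44 and -0.21. The days-matched comparison differs from the first by the step from p10 to p20 in Keniry2022, where 0 of 2391 autosomal bins (0.0%) passed by limma, the unadjusted p was under 0.05 for 1, and 0 passed with voom. It differs from the second by the step from p10 to p20 in Mulas2019, where 401 bins (16.8%) passed as measured. Of these, 18 (0.753%) were higher at p20 and 383 (16.0%) lower. After either GC correction 0 bins passed for that step. Within Keniry2022 the chromosome 10 bin was 0.14 higher and the chromosome 4 bin 0.14 lower at p20, on the log2 scale, so that a p that missed the threshold there does not show that the passages were alike.

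Bins that passed were often neighbours. The higher bins formed 188 runs of adjacent bins and the lower bins 211, of which 89 and 81 were single bins. The longest higher runs were 3 of 16 bins each. On chromosome 15 the run went from 73000001 to 89000000 and held 310 gene starts, with a median log2FC of 0.28. On chromosome 4 it went from 127000001 to 143000000 (276 gene starts, median log2FC 0.32) and on chromosome 5 from 110000001 to 126000000 (242 gene starts, median log2FC 0.31). Mean CPM over the chromosome 4 run was 448 and 447 in Mulas2019 p10 and 554 and 554 in Keniry2022 p20. The longest lower run covered 17 bins of chromosome 16 from 59000001 to 76000000, with 43 gene starts and a median log2FC of -0.39. Its mean CPM was 338 and 350 in Mulas2019 p10 and 267 and 272 in Keniry2022 p20. The next lower runs had 12 bins each, on chromosome 10 from 27000001, chromosome 12 from 57000001 and chromosome 15 from 13000001. Runs of both directions thus stood on the same chromosomes, as on chromosome 15. After the GC correction the median log2FC of these 7 runs was -0.06 to 0.01.

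Whole autosomes were compared next. The median bin of each autosome was taken relative to all autosomal bins, and 16 of 19 autosomes (84.2%) differed by limma at an adjusted p of 0.05, with 7 higher and 9 lower. Chromosome 11, the most GC-rich by its median bin, had 0.08 and 0.09 in Mulas2019 p10 replicates 1 and 2 and 0.22 and 0.24 in Keniry2022 p20 replicates 1 and 2, a difference of 0.15 (95% confidence interval 0.11 to 0.18, limma adjusted p 3.28e-04). Chromosomes 5, 9, 7, 17, 8 and 19 were higher by 0.08 to 0.06. Chromosome 16 had -0.02 and -0.04 in Mulas2019 p10 and -0.14 and -0.13 in Keniry2022 p20, a difference of -0.10 (95% confidence interval -0.13 to -0.07). Chromosome 14 followed with -0.06, and chromosomes 1, 2, 4, 6, 10, 13 and 15 had -0.04 to -0.02. By share of autosomal reads the differences were smaller for several autosomes, at 0.10 for chromosome 11, 0.03 to 0.04 for chromosomes 5, 8, 9 and 17, -0.02 for chromosome 13 and -0.05 for chromosome 16. Chromosomes 4 and 15 had 0.002 on that scale and did not pass. Chromosome 2 did not pass without either Mulas2019 p10 library, with bins of 500 kb (-0.01) or with bins under 0.5 of the median removed (-0.02), and chromosome 4 had -0.02 and did not pass in the last of these. Chromosome 6 did not pass with a fixed replicate block (-0.04), with the 4 libraries alone (-0.04), with no filter (-0.03), or without Mulas2019 p10 replicate 1 (-0.03) or Keniry2022 p20 replicate 1 (-0.02). Chromosomes 3, 12 and 18 did not pass, although 12 and 18 had -0.02 and passed by share of reads, and chromosome 12 also passed with no filter and with bins of 500 kb (-0.05 in both).

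Gains of chromosomes 8 and 11 are known from long mESC cultures. After the GC correction the difference was -2.80e-05 for chromosome 11 (95% confidence interval -0.01 to 0.01) and -0.003 for chromosome 8 (95% confidence interval -0.01 to 0.004). Then 0 of 19 autosomes (0.0%) passed by limma, while the unadjusted p was under 0.05 for 6. As a share of autosomal reads, chromosome 11 had 5.38% and 5.34% in Mulas2019 p10 and 5.71% and 5.74% in Keniry2022 p20.

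Chromosome 3 varied within the groups. Its share of autosomal reads was 6.45% and 6.75% in Mulas2019 p10 replicates 1 and 2, and 6.74% and 6.32% in Keniry2022 p20 replicates 1 and 2. Thus 1 library of each group had the higher share. The difference between groups was -0.02 (SE 0.055, limma adjusted p 0.717), with the largest standard error of all autosomes, and 0.09 (95% confidence interval -0.07 to 0.24) after the GC correction. By library, its corrected median bin relative to all autosomal bins was 0.02 and 0.08 in Mulas2019 p10 replicates 1 and 2. In Keniry2022 p20 replicates 1 and 2 it was 0.18 and 0.09, so that both lay above both Mulas2019 p10 libraries. The libraries with the higher share in their group were Mulas2019 p10 replicate 2 and Keniry2022 p20 replicate 1. They were those with more chromosome Y reads (21001 and 14408, against 240 and 222). Whether the same line gave both was not tested.

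**Figure D4:**
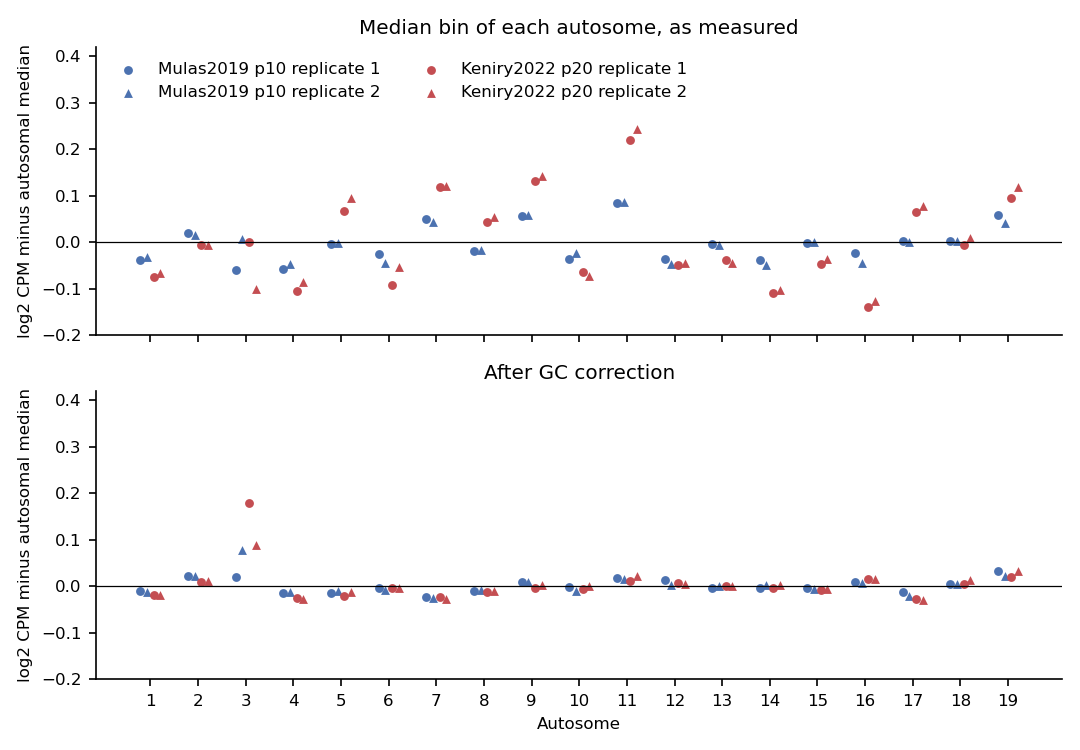
Median log2 CPM of the bins of each autosome minus that of all autosomal bins (y axis) in the 4 libraries, as measured (top) and after the GC correction (bottom). As measured, chromosomes 11 and 16 separate the groups most, and after the correction only chromosome 3 departs by more than 0.05.

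Of the bins that were most extreme after the GC correction, 1 passed. It lies on chromosome 7 from 59000001 to 60000000 and covers Ube3a, a ubiquitin ligase gene imprinted in neurons, and Snhg14, the host transcript of 210 snoRNA genes annotated in the bin, and reaches the 3' end of Snrpn. A repeat-free stretch of average GC content for this bin is given here, with G and C in capitals.
chr7:59012001-59012120, intergenic, bin of Ube3a: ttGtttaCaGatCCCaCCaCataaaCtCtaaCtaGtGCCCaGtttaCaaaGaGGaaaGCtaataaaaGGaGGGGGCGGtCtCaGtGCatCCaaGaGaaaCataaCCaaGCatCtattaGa
CPM of the bin was 192 and 192 in Mulas2019 p10 replicates 1 and 2, and 155 and 156 in Keniry2022 p20 replicates 1 and 2. The log2FC was -0.30 (SE 0.024) as measured and -0.31 after the GC correction (SE 0.016, limma adjusted p 0.0052). Reads were uneven along the bin, and the steps of 100 kb with 50 snoRNA gene starts each held 5.28% and 1.17% of them. The step from 59200001 to 59300000, which holds most of Ube3a, had 28.6 and 31.1 CPM in Mulas2019 p10 and 19.2 and 19.2 in Keniry2022 p20. The step from 59700001 to 59800000 had 5.46 and 4.61 against 7.34 and 6.94. Of 95 windows with reads, 39 were higher and 56 lower. Weighted by where reads fell, the GC content of the bin was 38.2% rather than 41.3%. The 101 autosomal bins within 0.25 points of that value had a median log2FC of -0.32, against -0.30 for this bin.

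The other bins chosen after the correction did not pass. On chromosome 17 from 39000001 to 40000000 (corrected log2FC 0.32) a single 10 kb window held 29.8% to 50.9% of the reads, and the log2FC of -0.03 as measured was -0.52 without it. On chromosome 9 from 35000001 (corrected log2FC -0.24) 1 window held 20.6% to 31.7% of the reads, and the log2FC of -0.15 was -0.01 without it. On chromosome 7 from 7000001 (corrected log2FC 0.13), a region of Vmn2r and zinc finger genes, read-weighted GC content was 41.96% against 39.4% for the whole bin. On chromosome 8 from 55000001 (corrected log2FC -0.24) 22.2% of the bases are unknown in the assembly. The bin on chromosome 3 from 128000001 (corrected log2FC 0.12) had a CPM of 379 and 404 in Mulas2019 p10 and 387 and 362 in Keniry2022 p20, which overlap. The largest difference that did not pass as measured was on chromosome 2 from 98000001, where 1 window held 89.7% to 91.9% of reads and the log2FC was -0.62 with an SE of 0.51. It passed with voom and in the fit of the 4 libraries alone.

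Genes of the pluripotent state were then read by the bin that holds their start, which measures the DNA around them and not their expression. Of 20 naive pluripotency genes, 11 lay in higher bins, 0 in lower bins and 9 in bins that did not pass, with a median log2FC of 0.21 against 0.15 over all protein-coding genes and 0.01 over all autosomal bins. Of all 20535 protein-coding genes, 39.7% lay in higher bins and 10.1% in lower bins, which is the background for counts of genes. Pou5f1 (Oct4), a core transcription factor, lay in a bin with a CPM of 427 and 415 in Mulas2019 p10 and 519 and 519 in Keniry2022 p20 (log2FC 0.30, limma adjusted p 1.15e-04). The highest was Fgf4, a growth factor that primes cells for differentiation, with a CPM of 477 and 470 against 597 and 594 (log2FC 0.33). Its bin also holds the cyclin gene Ccnd1. The lowest was Zfp42 (Rex1), a marker of naive cells, with 369 and 370 against 329 and 331 (log2FC -0.16), which did not pass. Nanog and Dppa3 shared a bin with a log2FC of 0.11 that did not pass. The median of the 19 bins was -0.03 once GC content was corrected for, as over all bins.

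The pathways that the medium acts on were read in the same way. Of 16 genes of LIF and 2i signalling, 10 (62.5%) lay in higher bins and 0 in lower bins, against 39.7% and 10.1% of all genes, with a median log2FC of 0.22. The highest was Map2k2, a Mek kinase, with a CPM of 305 and 312 in Mulas2019 p10 and 401 and 390 in Keniry2022 p20 (log2FC 0.36). Stat3, which transmits the LIF signal, had 0.29. Of 19 growth control genes, 10 (52.6%) lay in higher bins and 0 in lower bins, with a median of 0.23. Stk11 was highest, in the chromosome 10 bin above, and Trp53, the gene of p53, had 0.29. Cdkn2a, a cell cycle inhibitor often lost in culture, had a CPM of 367 and 367 against 337 and 331 (log2FC -0.14), which did not pass.

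Genes of DNA methylation, which set and remove the mark on cytosine, followed. Of 9, 5 (55.6%) lay in higher bins and 0 in lower bins, again against 39.7% and 10.1% of all genes, with a median log2FC of 0.18. Uhrf1, which brings Dnmt1 to replicated DNA, was highest at 0.37, with a CPM of 465 and 473 in Mulas2019 p10 and 605 and 605 in Keniry2022 p20. Dnmt1, the maintenance methyltransferase, had 0.03 and Tdg, a repair glycosylase, -0.05, and neither passed. Of 18 replication and damage response genes, 5 were in higher bins and 0 in lower bins, with a median of 0.10. Their share in higher bins, 27.8%, was below the 39.7% of all genes. Cdt1, a licensing factor, was highest at 0.37 and Mcm5, a helicase subunit, lowest at -0.14.

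Large genes at sites prone to breakage under replication stress had a negative median. Of 20 such genes, 9 (45.0%) started in lower bins, 2 (10.0%) in higher bins and 9 in bins that did not pass, against 10.1% and 39.7% of all genes in lower and higher bins, with a median log2FC of -0.18. Ptprd, a receptor phosphatase, was lowest, with a CPM of 323 and 337 in Mulas2019 p10 and 230 and 239 in Keniry2022 p20 (log2FC -0.49, limma adjusted p 1.05e-05). Lrp1b and Cntnap2, a lipoprotein receptor and a neuronal adhesion protein, had -0.48 and -0.47. Wwox, an oxidoreductase gene at a well-known fragile site, was highest, with 394 and 394 against 473 and 479 (log2FC 0.27), and Rbfox1, a splicing factor gene, had 0.25. GC content was 39.4% in the median bin of the list, and 36.9% and 44.8% in the bins of Ptprd and Wwox. With the GC correction the median of the 20 bins was -0.02.

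**Figure D5:**
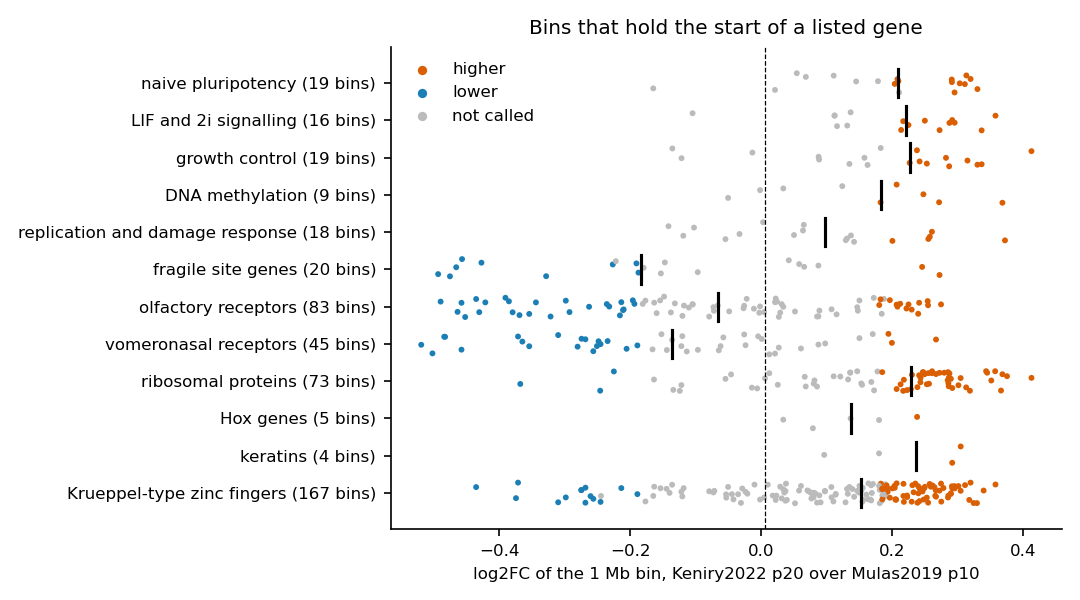
The log2FC of each bin that holds the start of a listed gene (x axis), by list, coloured by the limma call. Black bars are medians over bins and the dashed line is the median of all autosomal bins. The medians of the pluripotency, signalling and growth control lists lie at 0.21 to 0.23, and that of the fragile site genes at -0.18.

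Gene families in tandem arrays showed both directions. The 1127 autosomal olfactory receptor genes lie in 83 bins, with a median over bins of -0.07. Of these bins 25 (30.1%) were lower and 14 (16.9%) higher. Among the 2116 bins with gene starts 20.0% were lower and 22.3% higher, and among all autosomal bins 27.1% and 19.8%. Counted by gene, 648 (57.5%) lay in lower and 61 (5.41%) in higher bins, against 10.1% and 39.7% of all genes. The 5 bins with most of these genes were all lower. The chromosome 2 bin from 88000001, with 44 receptor genes, had a CPM of 295 and 312 in Mulas2019 p10 and 212 and 221 in Keniry2022 p20 (log2FC -0.49, limma adjusted p 1.05e-05). Vomeronasal receptors, which detect pheromones, lie in 45 tested bins, with a median of -0.14. Of these bins 19 (42.2%) were lower and 3 (6.67%) higher, against the same 20.0% and 22.3% of bins with gene starts. By gene, 133 of 267 (49.8%) lay in lower bins and 10 (3.75%) in higher bins. Another 59 of these genes were in bins under the filter. Genes in 1 array share a bin and are not separate measurements.

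Ribosomal protein genes, which are scattered over the genome, lie in 73 bins, with a median of 0.23. Of these bins 43 (58.9%) were higher and 3 (4.11%) lower, against 22.3% and 20.0% of bins with gene starts. By gene, 48 of 79 (60.8%) lay in higher bins and 3 (3.80%) in lower bins, against 39.7% and 10.1% of all genes. Genes with Zfp symbols, mostly zinc finger factors, lie in 167 bins, with a median of 0.15. Of these bins 64 (38.3%) were higher and 14 (8.38%) lower, against the same 22.3% and 20.0%. Counted by gene, 124 of 352 (35.2%) lay in higher and 41 (11.6%) in lower bins, near the 39.7% and 10.1% of all genes. The 39 Hox genes, which pattern the body axis, lie in 5 bins. Only the Hoxb bin on chromosome 11 passed, with a CPM of 448 and 450 in Mulas2019 p10 and 533 and 526 in Keniry2022 p20 (log2FC 0.24). That is 20.0% of the Hox bins, near the 22.3% of bins with gene starts that were higher. It holds 10 of the 39 genes (25.6%), below the 39.7% of all genes. The keratin genes lie in 4 bins, of which 2 were higher, with 35 of 49 genes (71.4%, against 39.7% of all genes), and the chromosome 15 bin from 101000001, with 22 keratin genes, had a log2FC of 0.30. After the GC correction no list had a median over bins outside -0.09 to -0.02.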

How the data were processed

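Low-coverage genomic DNA libraries were sequenced as 75 bp single-end reads by the authors. The processing notes of the submitters name bcl2fastq, Bowtie2 and the build mm10, with tool versions not given in the sources used here. Log2 values were deposited by the authors for 272566 rows, mostly windows of 10 kb. From the values, the unit of the deposited log2 table was whole reads scaled to the depth of the largest library, and an empty window had 0.9 reads. Whole reads were recovered for 100% of values (tolerance 0.1 reads). The last windows matched the ends of 21 GRCm38 chromosomes. The methods describe 1 Mb bins without blacklisted regions, and the blacklist was not used here. Groups and replicate numbers came from the sample titles.

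Reads were summed in 1 Mb bins and scaled to CPM of nuclear reads, and bins under 0.1 of the median bin were removed (2541 of 2737 kept). GC content was read from GRCm38 (RefSeq) and gene starts from GENCODE M21. The 8 libraries after p0 entered 1 limma fit (limma 3.58.1, statmod 1.5.0, R 4.3.3) on log2 CPM with 4 group means, a trended prior and the replicate number as a random block (consensus correlation 0.133). The study used voom on counts; as the deposited unit is log2, voom on recovered reads was an alternative. The TREAT minimum was a fold of 1.1, whereas the study words it as a log2FC of 1.1, which was an alternative, and p-values were adjusted by Benjamini-Hochberg over 2541 bins at 0.05. Autosomes were tested with limma on the median bin, over 19 autosomes. The GC correction subtracted a loess curve (span 0.3) from each library and then restored the library's mean log2 CPM over autosomal bins. The fit was tested on simulated data. Other steps used Python 3.11.15 with matplotlib 3.10.9, numpy 2.4.6, scipy 1.17.1 and pandas 2.3.3.

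The pairing of replicate numbers, which the study's methods tie to the line, was checked by correlating the difference between replicates 1 and 2 over bins after the GC correction. It was -0.41 between Mulas2019 p10 and Keniry2022 p20, 0.53 between Mulas2019 p10 and p20, and -0.69 between Keniry2022 p20 and Mulas2019 p20, and without chromosome 3 it was 0.05, 0.06 and -0.06. Named bins were the 8 largest gains and 8 largest losses that passed (at most 2 per chromosome), the longest runs, the 3 highest and 3 lowest bins after the GC correction (1 per chromosome), all autosomes, and in each gene list the highest and lowest members and those that passed, of which a selection is given and a member is not reported here. Other genes in these bins, and the genes and bins named beside these, were picked as landmarks after the values were seen. Members and gene lists were chosen with earlier results of these data known. Alternatives were other tools, blocks, filters, minimum changes, scalings, bin sizes, libraries and leaving out each library.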

Additional observations from a re-analysis of the deposited data

Results flagged for a closer look

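Chromosome Y was outside the comparison and gave reads above the limit of 3 reads that a count of 0 allows in all 4 libraries. Mulas2019 p10 replicates 1 and 2 had 240 and 21001 reads on Y, and Keniry2022 p20 replicates 1 and 2 had 14408 and 222. In each group 1 library thus held most Y reads, with the order of the replicate numbers turned in Keniry2022 p20. Replicates 1 and 2 had 442 and 16973 Y reads already at p0, 350 and 18473 at Keniry2022 p10, and 125 and 10784 at Mulas2019 p20. The share of Y was 0.059% (Wilson 95% confidence interval 0.0586% to 0.0602%) in Mulas2019 p10 replicate 2 and 0.044% (0.0433% to 0.0448%) in Keniry2022 p20 replicate 1.

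Chromosome X was also outside the comparison. Its share of reads was 2.70% and 2.73% in Mulas2019 p10 replicates 1 and 2, and 2.30% and 2.31% in Keniry2022 p20 replicates 1 and 2. Of 149 X bins, 96 were lower and 2 higher in Keniry2022 p20 with limma. The median log2FC was -0.31 as measured and -0.08 after the GC correction.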

How the results depend on the processing

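The share of autosomal bins that differed between Keniry2022 p20 and Mulas2019 p10 was 41.0% to 49.5% under voom, no block, a fixed block, other filters, centring, other sets of libraries, bins of 500 kb and each library left out (41.0% to 46.8% for the last), against 46.9%. The higher share was 15.7% to 21.6% (15.7% to 20.0% without single libraries) and the lower share 25.2% to 28.7% (25.2% to 26.8%). The fixed replicate block gave 472 higher and 649 lower bins, and the crossed replicate numbers of Keniry2022 p20 gave 487 and 652. With no minimum change 87.2% differed, 44.3% higher and 42.9% lower. At a minimum log2FC of 1.1, 0.0% passed by limma and no bin (0) reached an unadjusted p of 0.05. Both GC corrections, with the random and the fixed replicate block, left 0.0418%, with 0.0% higher and 0.0418% lower.

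For p20 against p10 within Keniry2022 the share was 42.8% with no minimum change and 0.0% otherwise. Within Mulas2019 it was 79.1% with no minimum change, 0.0% after either GC correction or with a log2FC of 1.1, and 10.8% to 13.8% without either p10 library, while no p20 library was left out. Between 14 and 16 autosomes differed, also without single libraries, and 0 after either GC correction. The difference between groups in the GC slope was 0.064 per 1% GC (0.061 to 0.066 without single libraries) and 3.29e-05 after the correction.

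After either GC correction some signs turned. The median log2FC over all autosomal bins was then -0.033, so bins near that value lay at the common centre. Among values that passed as measured the turned values were near 0. Bins on chromosome 10 from 80000001 (-0.0399), chromosome 4 from 140000001 (-0.0044) and 154000001 (-0.0234), chromosome 8 from 120000001 (-0.0245) and chromosome 11 from 118000001 (-0.0167) did so, as did the bins of Fgf4 (-0.0266), Map2k2 (-0.0067), Uhrf1 (-0.0374), Cdt1 (-0.0438), Pou5f1 (-0.0392), Stat3 (-0.0318), Trp53 (-0.0558) and Rbfox1 (-0.0118), the Hoxb bin (-0.0314), the bin of 22 keratin genes (-0.0400), the medians of the 3 longest higher runs (-0.0381 to -0.0231) and of the lower run on chromosome 15 from 13000001 (0.0071). So did chromosomes 5 (-0.0036), 6 (0.0013), 7 (-0.0013), 8 (-0.0030), 9 (-0.0108), 10 (0.0044), 11 (-2.80e-05), 13 (0.0021), 14 (8.44e-04), 16 (0.0081), 17 (-0.0121) and 19 (-8.54e-04). By share of autosomal reads chromosomes 4 (0.0021) and 15 (0.0016) turned. Among values that did not pass as measured, chromosome 3 turned from -0.02 to 0.09 and chromosome 18 from -0.001 to 0.005. The bins on chromosome 17 from 39000001, chromosome 7 from 7000001 and chromosome 3 from 128000001 turned to 0.32, 0.13 and 0.12. The bin of Dnmt1 turned to -0.12 and that of Nanog and Dppa3 to -0.02. The cause was not tested. The fit of the 4 libraries alone could not estimate a random block and had none. Each leave-one-out fit leaves 1 group with 1 library, assumed to vary like the others. Depth limits a bin to a counting error of about 0.9%, and the 2 libraries per group limit the rest.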
